A study of Mus musculus with 8 samples.

Results

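Insulin-like growth factor I (IGF-I) is made by the liver under the control of growth hormone and also locally in skeletal muscle, where it drives fibre growth. Growth hormone binds its receptor, which activates the kinase JAK2 and the transcription factor STAT5B. STAT5B switches on Igf1 and also Socs2 and Cish, whose products damp the receptor's signal. In tissue, IGF-I and IGF-II act through the IGF-I receptor, the IGF-II receptor removes IGF-II, and a family of binding proteins holds both ligands or releases them. The 10 genes described here cover these roles: the ligands Igf1 and Igf2, the receptors Igf1r, Igf2r and Ghr, the binding proteins Igfbp3, Igfbp4, Igfbp5 and Igfbp6, and the feedback gene Socs2. They were chosen by symbol, with earlier results of the same diet comparison known, so their differences between the diets are given as a description with no test. Each of the 10 has 1 row on the array that carries its symbol alone, out of 14860 genes named in this way.

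The samples were whole gastrocnemius, the large calf muscle, of male C57BL/6 mice whose age is given as 12 weeks. Control mice ate plain chow. The others ate the same chow with 0.27% ursolic acid, a triterpenoid of fruit peel, for 5 weeks. RNA of 2 mice was pooled for a sample, and 4 control and 4 ursolic acid samples were hybridised to 1-colour arrays, so 8 log2 expression values stand behind each gene and their number limits the precision. It is not stated that the pools share no mouse, and p-values measure only the spread between these samples. The free-text descriptions contradict the titles and the treatment field for 4 of the 8 samples: control samples 2 and 4 are described as treated, and ursolic acid samples 1 and 3 as untreated. Groups here follow the titles.

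The tissue carried the markers of skeletal muscle. The 6 measured fibre genes of the list, among them Ckm, the muscle creatine kinase, and Myl1, a myosin light chain of fast fibres, had control means between 9.02 and 12.5, while the 8 arrays had medians of 5.55 to 5.61. Control sample 1 stood slightly apart, with a mean Spearman correlation of 0.977 to the remaining 7 arrays where each of those had 0.983 to 0.986. For Igf1, Socs2, Igfbp4, Igfbp6, Jak2 and Cish the difference is also given without control sample 1. Of all 16755 rows, 0 passed limma's adjusted p of 0.05 in ursolic acid against control (0.00%), so 0 of the 10 IGF axis genes did. At an unadjusted limma p of 0.05, 1185 rows passed (7.07%), and 4 of the 10 genes were among them: Igf1 and Socs2 with higher values (background in that direction 4.08%), and Ghr and Igfbp5 with lower ones (3.00%). Nothing is read from those counts, since the members were chosen with this contrast known.

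Of the ligands, Igf1 had the higher values with ursolic acid, and Igf2 had almost equal means. Igf1 had log2 values of 7.26, 7.51, 7.45 and 7.65 in control samples 1 to 4 and of 8.38, 8.02, 7.89 and 7.80 in ursolic acid samples 1 to 4. Every ursolic acid sample lay above every control sample, and the lowest of them, sample 4, lay 0.15 above the highest control. The means were 7.47 ± 0.16 (SD, n = 4) and 8.02 ± 0.26, a difference of 0.56 ± 0.13 (SE) or 1.47-fold, with a 95% interval of 1.20-fold to 1.80-fold. Of the 14860 genes, 39 had a larger positive difference. In whole muscle, more Igf1 RNA per cell and more cells that hold it cannot be told apart.

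Igf1 had a range of 0.58 in the ursolic acid group and of 0.40 in control, and sample 1 was the outermost value in each group. Ursolic acid samples 2 to 4 spanned 7.80 to 8.02, and control samples 2 to 4 spanned 7.45 to 7.65. The spreads were not compared by a test. Without ursolic acid sample 1 the difference was 0.44, and without control sample 1, the lowest control, it was 0.48. Among samples described as untreated the Igf1 difference was 0.78, and among those described as treated it was 0.33. Whether these 2 values differ was not tested.

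Igf2, the fetal growth factor of the pair, had log2 values of 6.21, 6.05, 6.13 and 6.08 in control and of 6.15, 5.93, 6.30 and 6.06 with ursolic acid. The ursolic acid samples enclosed the control range on both sides. The difference was −0.01 ± 0.09 (SE), with a 95% interval of −0.20 to 0.18. Leaving out 1 sample at a time gave −0.07 (without ursolic acid sample 3) to 0.05 (without ursolic acid sample 2), and the 4 samples whose titles and descriptions concur gave −0.18.

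**Figure D1:**
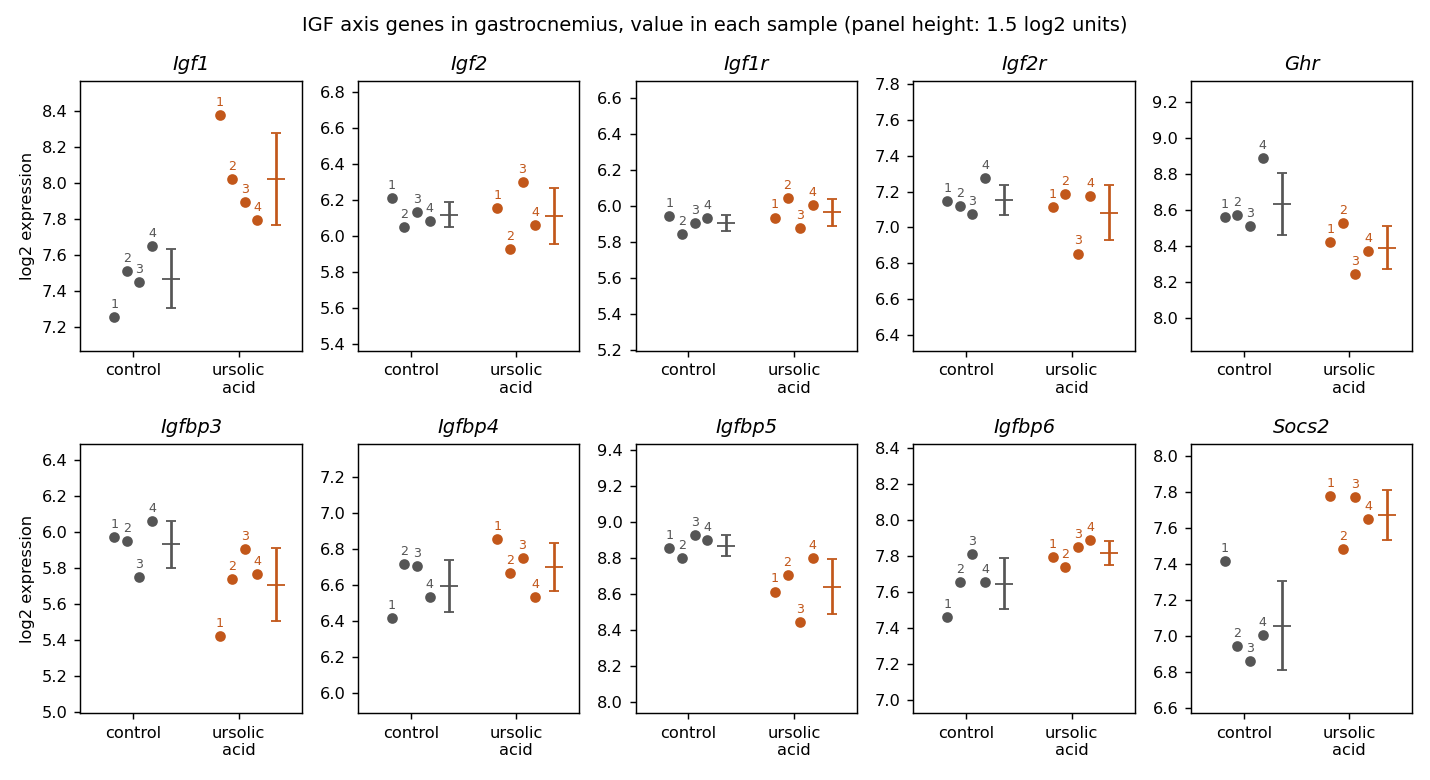
Log2 expression of the 10 genes in each sample, numbered 1 to 4 within control (grey) and ursolic acid (orange), with the group mean and SD beside the points; each panel spans the same height on the log2 scale. The groups are apart in Igf1 and Socs2 and overlap in the other 8 genes, by a narrow margin in Igfbp5 and Ghr.

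Of the 3 receptors, Ghr, which binds growth hormone, had lower values with ursolic acid, while Igf1r and Igf2r had differences smaller than their standard errors. Ghr had log2 values of 8.56, 8.57, 8.51 and 8.89 in control and of 8.42, 8.52, 8.24 and 8.37 with ursolic acid. Ursolic acid samples 1, 3 and 4 lay below every control, and sample 2 at 8.524 lay just above control sample 3 at 8.510. The means were 8.63 ± 0.17 (SD, n = 4) and 8.39 ± 0.12, a difference of −0.24 ± 0.10 (SE), which is 0.846 of the control level. Control sample 4 held the highest value by a wide margin, and without it the difference was −0.16. In the 4 samples whose titles and descriptions concur, control samples 1 and 3 and ursolic acid samples 2 and 4, the Ghr difference was −0.09.

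Igf1r, the tyrosine kinase receptor through which both ligands signal, was the steadiest of the 10 genes in control, with log2 values of 5.94, 5.85, 5.91 and 5.93. Its values with ursolic acid were 5.94, 6.05, 5.88 and 6.01, so 2 samples lay above the control range and 2 within it. The difference was 0.06 ± 0.06 (SE), with a 95% interval of −0.08 to 0.20, that is 0.945-fold to 1.15-fold. It was −0.02 among samples described as untreated and 0.14 among those described as treated. These levels are close to the array medians, as are those of Igfbp3. No measure of signal above background is given for a row, so a difference in either gene may be understated. Igf2r, which carries IGF-II and enzymes tagged with mannose 6-phosphate to lysosomes, had log2 values of 7.14, 7.12, 7.07 and 7.27 in control and of 7.11, 7.18, 6.86 and 7.17 with ursolic acid. Ursolic acid sample 3 was the lowest of the 8, and the other 3 lay within the control range. The Igf2r difference was −0.07 ± 0.09 (SE), and it was 0.00 without ursolic acid sample 3, −0.03 without control sample 4 and 0.07 in the 4 samples whose labels concur.

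The binding proteins did not share a direction. Igfbp5 and Igfbp3 had lower means with ursolic acid, Igfbp6 and Igfbp4 had higher means, and the groups overlapped in each of the 4. Igfbp5, the binding protein that rises when myoblasts differentiate, had log2 values of 8.85, 8.80, 8.93 and 8.90 in control, the narrowest control spread of the 4 (SD 0.06). With ursolic acid its values were 8.62, 8.71, 8.45 and 8.80. Ursolic acid samples 1 to 3 lay below all controls, and sample 4 at 8.803 stood level with control sample 2 at 8.799. The Igfbp5 difference was −0.23 ± 0.08 (SE), or 0.853 of the control level. It was −0.36 among samples described as untreated and −0.10 among those described as treated, a contrast that was not tested, and −0.14 in the 4 samples whose labels concur.

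Igfbp3, the main carrier of IGF-I in blood, had log2 values of 5.97, 5.95, 5.75 and 6.06 in control and of 5.42, 5.74, 5.91 and 5.76 with ursolic acid. Only ursolic acid samples 1 and 2 lay below the control range. The difference was −0.22 ± 0.11 (SE), and it was −0.13 without ursolic acid sample 1, which had both the lowest Igfbp3 and the highest Igf1 of the 8 samples. It was −0.11 in the 4 samples whose labels concur.

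Igfbp6, which prefers IGF-II to IGF-I, had log2 values of 7.46, 7.66, 7.81 and 7.66 in control and of 7.79, 7.74, 7.85 and 7.89 with ursolic acid. Ursolic acid samples 3 and 4 lay above all controls, and the other 2 lay below control sample 3 only. The difference was 0.17 ± 0.08 (SE) with all samples and 0.11 without control sample 1, the lowest of the 8. Igfbp4, an inhibitor of IGF action that proteases cleave, had log2 values of 6.42, 6.72, 6.70 and 6.53 in control and of 6.85, 6.66, 6.75 and 6.54 with ursolic acid. Ursolic acid samples 1 and 3 lay above all controls, and the other 2 within their range. The Igfbp4 difference of 0.11 ± 0.09 (SE) also leaned on control sample 1, again the lowest, and was 0.05 without it, 0.06 without ursolic acid sample 1 and 0.16 without ursolic acid sample 4. Its sign differed between the description classes, at 0.24 in samples described as untreated and −0.03 in those described as treated, and it was 0.04 in the 4 samples whose labels concur.

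Socs2, an adaptor of a ubiquitin ligase that marks the growth hormone receptor for breakdown, had the largest difference of the 10 genes. Its log2 values were 7.42, 6.94, 6.86 and 7.01 in control and 7.78, 7.49, 7.77 and 7.65 with ursolic acid. All 4 ursolic acid samples lay above all 4 controls, but ursolic acid sample 2 cleared control sample 1 by only 0.07. The means were 7.06 ± 0.25 (SD, n = 4) and 7.67 ± 0.14, a difference of 0.62 ± 0.12 (SE) or 1.53-fold, with a 95% interval of 1.27-fold to 1.85-fold. Of the 14860 genes, 18 had a larger positive difference.

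Leaving out control sample 1 gave a larger difference in Socs2 and a smaller one in Igf1. It held the highest control value of Socs2 and the lowest control value of Igf1, so that without it the Socs2 difference was 0.74 and the Igf1 difference 0.48. The Socs2 difference was nearly the same in both description classes, at 0.64 in samples described as untreated and 0.59 in those described as treated. In the 4 samples whose labels concur, the difference was 0.43 for Socs2 and 0.56 for Igf1. By limma over all rows Socs2 had the smallest adjusted p of the 10 genes, 0.188, and it reached 0.0469 when arrays were weighted by their quality, a setting in which control sample 1 had a weight of 0.462 and the other 7 arrays weights of 0.736 to 1.64. That was the only alternative in which 1 of the 10 genes passed. Groups did not overlap in 2 of the 10 genes, Igf1 and Socs2, both higher, where 4.49% of all rows had groups that did not overlap with 2.66% of rows higher and 1.83% lower with ursolic acid. These p-values and counts are description only, since the 10 genes were chosen with this contrast known.

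**Figure D2:**
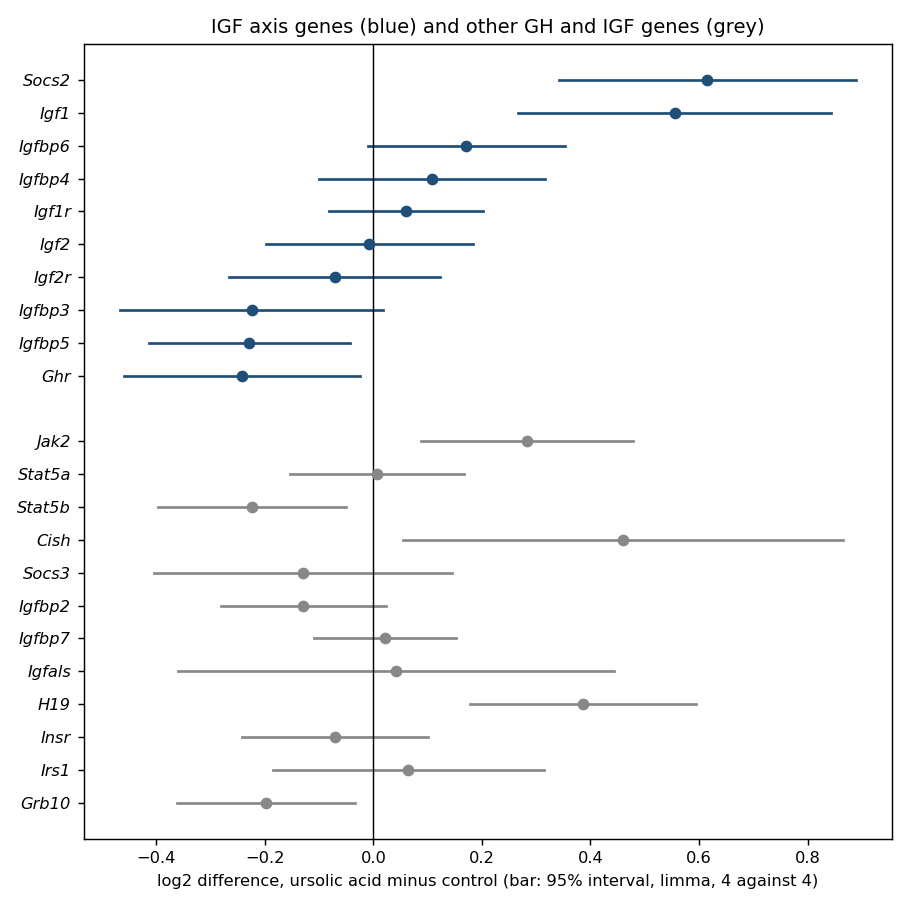
Log2 difference of ursolic acid minus control with its 95% interval (limma, 4 samples against 4) for the 10 IGF axis genes in blue and for 12 other genes of growth hormone and IGF signalling in grey; the vertical line marks no difference. Socs2 at 0.62 and Igf1 at 0.56 are at the top of the blue genes, Ghr at −0.24 at the bottom, and Cish at 0.46 and H19 at 0.39 lead the grey genes.

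Other genes of the pathway, 48 written down as 6 lists by role, gave 38 measured genes, and the other 10, among them Prlr, Pappa and Irs2, were not analysed here. By limma over all rows 0 of the 38 passed an adjusted p of 0.05. Without adjustment, 5 had a limma p under 0.05, 3 with higher and 2 with lower values, which is 13.2% where 7.07% of all rows passed. Nothing is read from that count either, since the lists were chosen with earlier results of these data known. The median difference was 0.01 for the 38 genes and 0.03 for the 10 IGF axis genes, against −0.01 over all genes. The 5 were Jak2, Cish, H19, Stat5b and Grb10.

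Downstream of the growth hormone receptor, 4 of 8 measured genes had higher means and 4 lower. Jak2, the kinase bound to the receptor, had log2 values of 7.736, 7.878, 7.795 and 8.050 in control and of 8.237, 8.112, 8.004 and 8.239 with ursolic acid, where only sample 3 fell inside the control range. Its difference was 0.28 ± 0.09 (SE; limma adjusted p = 0.468), with 0.24 without control sample 1 and 0.41 in the 4 samples whose labels concur. Stat5b, the factor that Jak2 activates, was on the other side, at 8.59, 8.78, 8.73 and 8.80 in control and at 8.53, 8.62, 8.36 and 8.50 with ursolic acid, where only sample 2 lay above control sample 1, the lowest control. The Stat5b difference was −0.22 ± 0.08 (SE; limma adjusted p = 0.570), with −0.10 in the 4 samples whose labels concur, and that of its close relative Stat5a was 0.01 ± 0.07. Ptpn1, a phosphatase that acts on JAK2, had a difference of −0.12 ± 0.07.

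Among the other 7 SOCS family genes, 5 had higher means and 2 lower. Cish, the family member that is most like Socs2 in being a target of STAT5, had log2 values of 6.17, 5.48, 5.69 and 5.54 in control and of 6.54, 6.08, 6.31 and 5.78 with ursolic acid. Control sample 1 was again the highest control, above ursolic acid samples 2 and 4. The Cish difference was 0.46 ± 0.18 (SE; limma adjusted p = 0.658), 0.61 without control sample 1 and 0.00 in the 4 samples whose labels concur. Socs3, the family member tied to interleukin-6 signals, had a difference of −0.13 ± 0.12 in the brighter of its 2 rows and of −0.42 ± 0.15 in the dimmer one. Both rows lay below the array medians, with means of 5.05 and 4.52 over the 8 samples, so either difference may be understated. Socs4 and Socs5 had differences of 0.14 ± 0.12 and 0.13 ± 0.10.

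The genes that hold, release or make the ligands mostly had differences close to 0. Control means lay below the array medians for Igfbp2 (5.38), Igfbp1 (5.33), Stc2 (5.01), Igfals (4.44) and Stc1 (4.31). Differences in these dim genes may be understated. Of the 5 other binding proteins and partners, 2 had higher means and 3 lower. Igfbp7, a low-affinity member of the family, had a difference of 0.02 ± 0.06, Igfbp2 one of −0.13 ± 0.07 and Igfbp1 one of −0.09 ± 0.10. Igfals, the liver protein that stabilises IGF-I in blood, had one of 0.04 ± 0.18. Of the 5 proteases and inhibitors, Htra1, Stc2 and Stc1 had differences of 0.17 ± 0.13, −0.06 ± 0.07 and 0.09 ± 0.13.

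H19, the imprinted RNA that lies beside Igf2 and shares its enhancers, had log2 values of 9.569, 9.495, 9.459 and 9.481 in control and of 10.081, 9.651, 9.998 and 9.819 with ursolic acid. The groups did not overlap, and the difference was 0.39 ± 0.09 (SE; limma adjusted p = 0.288), with 0.22 in the 4 samples whose labels concur, while that of Igf2 was −0.01. Furin, a protease that cuts growth factor precursors, had a difference of −0.06 ± 0.07, and Igf2bp1, which binds Igf2 mRNA, one of 0.02 ± 0.10. Igf2bp1 was also dim, with a control mean of 4.69. Of the 9 related receptors and adaptors, Grb10, which binds the IGF-I and insulin receptors and inhibits them, had log2 values of 6.14, 6.14, 6.07 and 6.09 in control and of 6.05, 5.76, 5.95 and 5.90 with ursolic acid. All ursolic acid values of Grb10 lay below all controls, with a difference of −0.20 ± 0.07 (SE; limma adjusted p = 0.630). Insr, the insulin receptor, and Irs1, its main substrate in muscle, had differences of −0.07 ± 0.08 and 0.06 ± 0.11, and the adaptors Sos1 and Gab1 had 0.11 ± 0.08 and 0.11 ± 0.09.

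**Figure D3:**
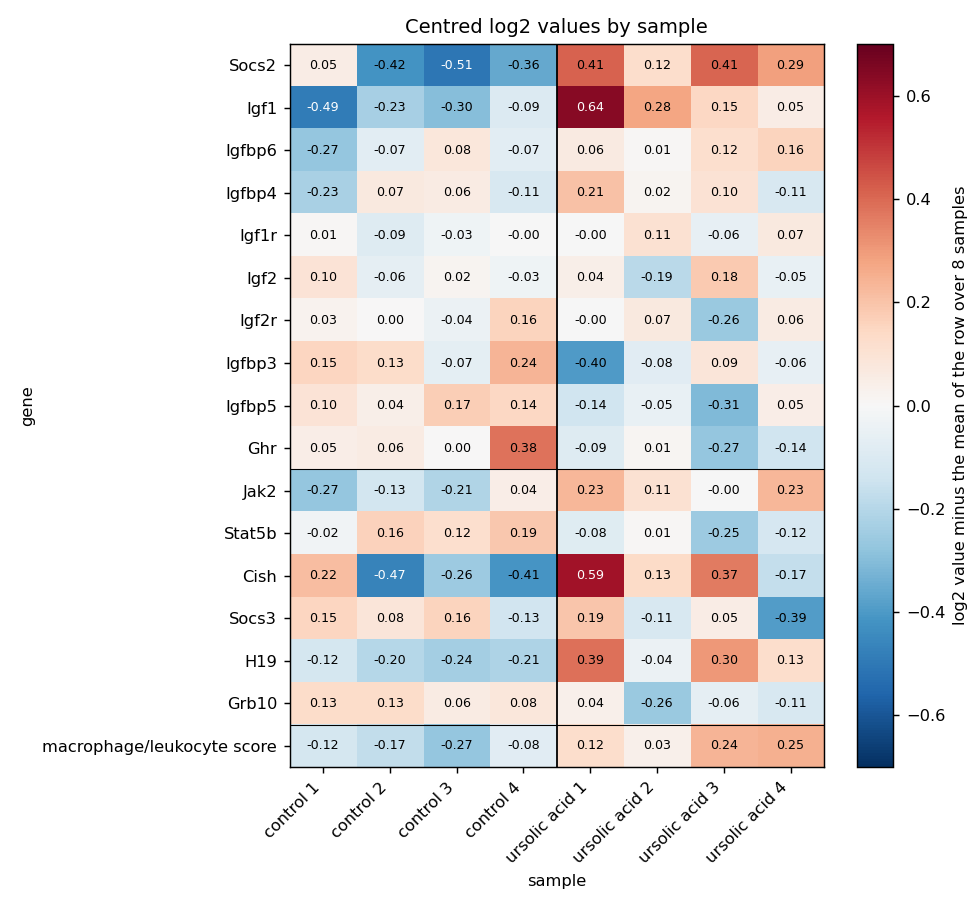
Log2 value of each gene minus its mean over the 8 samples, by sample (columns, control left of the line), for the 10 IGF axis genes, 6 other genes of the pathway and the score of 20 macrophage and leukocyte markers (bottom row). Red is above the gene's mean and blue below it; Igf1 is highest in ursolic acid sample 1 and Socs2 is as high in sample 3 as in sample 1.

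Macrophages and connective tissue cells also make IGF-I, and their markers were compared in the same arrays. Of 20 measured macrophage and leukocyte markers, 19 had higher means with ursolic acid, with a median difference of 0.32, and 0 passed limma's adjusted p of 0.05. The summed level of the list, as the mean of values centred per gene, ran from −0.27 to −0.08 in control and from 0.03 to 0.25 with ursolic acid. Mrc1, a scavenger receptor of tissue macrophages, had a difference of 0.65 ± 0.12 (SE), and Tyrobp, an adaptor of myeloid cells, one of 0.69 ± 0.11. These were the largest of the list. Fcer1g had 0.01 ± 0.10, Mertk 0.03 ± 0.07 and Cx3cr1, the only marker with a lower mean, −0.13 ± 0.17. Control means of the markers lay between 4.79 and 7.43, and a log2 value on these arrays has no true 0, so no marker could be called absent. The part of these cells in the Igf1 and Socs2 differences was not tested. In ursolic acid samples 1 to 4 the marker score was 0.12, 0.03, 0.24 and 0.25. In the same order Igf1 was 8.38, 8.02, 7.89 and 7.80, and Socs2 was 7.78, 7.49, 7.77 and 7.65. Whether either gene follows the score within the group was not tested.

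Fibroblast and matrix markers had higher means in 11 of 11 measured genes, with a median difference of 0.19. Their score ran from −0.17 to −0.02 in control and from −0.13 to 0.31 with ursolic acid, so that the groups overlapped through ursolic acid sample 2. Lum, the proteoglycan lumican, had the largest difference of the 11, 0.61 ± 0.11 (SE). Other matrix genes differed little: Col1a1 had 0.05 ± 0.11, Col3a1 0.06 ± 0.10 and Dcn 0.09 ± 0.07. The part of these cells was not tested either. Scores overlapped between the diets for muscle fibre, satellite cell, adipocyte, endothelial, pericyte, tendon and Schwann cell markers, with median differences between −0.09 and 0.07.

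Likeness of pattern was measured as the root mean square difference over the 8 arrays between genes centred on their own means, among 14408 other named genes. Nearest to Igf1 were Npnt, a matrix ligand of integrins (0.101 on the log2 scale), Clec4a3 (0.123) and Mgl2 (0.154), lectins of myeloid cells, Cd74, the class II invariant chain (0.155), and Vmn1r64, a vomeronasal receptor whose log2 values of 3.22 to 4.18 were among the dim ones (0.159). Nearest to Socs2 were Mid1ip1, a regulator of fatty acid synthesis (0.118), Alox5ap, the 5-lipoxygenase activating protein (0.129), Tyrobp (0.131), Dbp, a transcription factor of the clock (0.135), and the class II chain H2-Aa (0.141). Socs2 itself was 0.283 from Igf1, with 1086 genes nearer. The measure favours genes with a difference of the same size between the diets, so it largely restates that difference.

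STAT5 binds the sequence TTCNNNGAA, which is its own reverse complement, and the RefSeq promoter windows (assembly GRCm38.p6, 250 bases before to 50 after each start) were searched for it on both strands. The deposited values name the older build mm9, and no position from them was used. Of the 10 IGF axis genes 9 had a window, with 13 windows in all. Of these 13, 0 held the sequence, where 8.30% of 32851 windows did. Socs2 had no window and was not searched. Among the other pathway genes, 28 of the 38 had windows, and 6 of 39 windows held it, in Cish, Socs3, Igfals and Gab1. The windows of Gab1 overlap and hold the same site. The window of Cish held it 2 times, which 0.457% of all windows did at least as often. A match here is a description of letters, and its absence says nothing of the factor. The 250 bases before the Igf1 start (chr10:87860861-87861110, plus strand) are shown because Igf1 is the ligand with the largest difference, and the 3 stretches of 30 bases because they put the paired match of Cish beside single ones, at chr9:107296654-107296683 (plus strand), chr11:117969502-117969531 (minus strand) and chr17:24878162-24878191 (plus strand). A start is that of the RefSeq transcript the window belongs to: those of Igf1 and Socs3 lie within the gene, after the first base of its RefSeq record, and that of Igfals is the second of its 3 windows. Capitals mark the TTC and GAA of each match, and all are written 5′ to 3′ on the gene's strand.
Igf1: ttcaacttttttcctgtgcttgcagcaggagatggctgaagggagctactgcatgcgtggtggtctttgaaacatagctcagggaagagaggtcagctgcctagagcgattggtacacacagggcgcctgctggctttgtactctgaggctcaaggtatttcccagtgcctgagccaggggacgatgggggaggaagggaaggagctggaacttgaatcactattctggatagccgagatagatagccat
Cish: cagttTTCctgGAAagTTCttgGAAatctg
Socs3: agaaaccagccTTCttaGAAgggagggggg
Igfals: tctgccaggtgTTCctaGAAgaggccctgg
Counted from the first base of that transcript as 1, the matches of Cish begin at 1 and 12. That of Socs3 begins 154 bases before the start and that of Igfals 58 bases before it. Of the genes with a match, Cish had a log2 difference of 0.46 ± 0.18 (SE) with ursolic acid and Gab1 one of 0.11 ± 0.09. Socs3 in its brighter row had −0.13 ± 0.12 and Igfals 0.04 ± 0.18. Igf1, with no match, had 0.56. Whether a match bears on the differences was not tested.

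**Figure D4:**
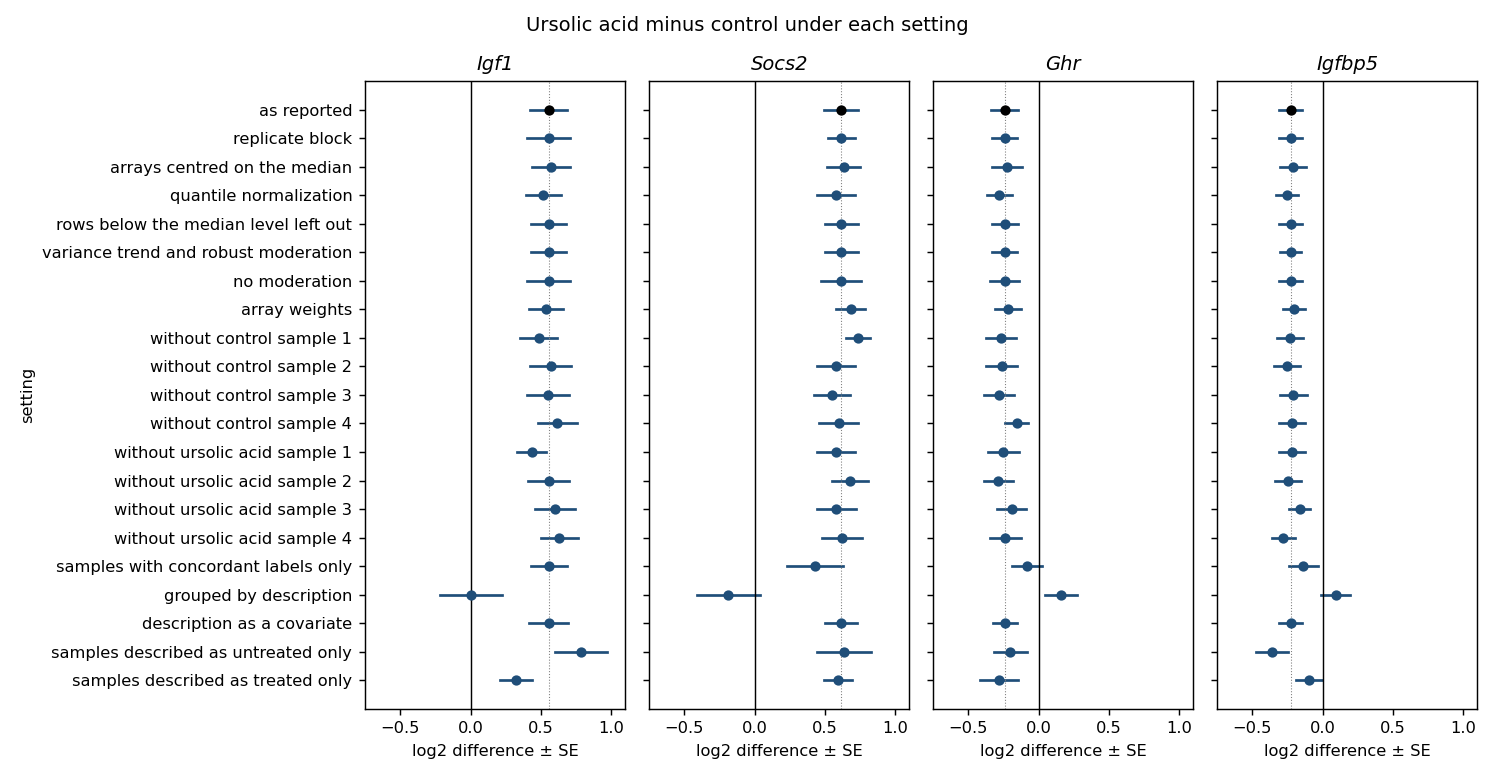
Log2 difference of ursolic acid minus control, with its SE, for Igf1, Socs2, Ghr and Igfbp5 under each processing setting; the black point is the value reported and the dotted line carries it down. In the setting grouped by description the difference is samples described as treated minus those described as untreated, and there the value is 0.0017 for Igf1 and −0.19 for Socs2, while Ghr and Igfbp5 are above 0. In all other settings each gene keeps its side of 0.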

How the data were processed

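RNA of 8 pooled gastrocnemius samples was amplified, labelled with biotin and hybridised to 1-colour arrays, per the labels' protocols. The deposited values are log2 expression made with RMA (background correction, normalization between arrays, summary of probes), with mm9 as the build, per the submitters' processing notes. Not given in the sources used here are the software version, the log base and any filter; base 2 was taken from the range of the values. Rows (16755) were named from the platform annotation where they carried 1 symbol (14996 rows, 1019 with several, 740 with none), of which 14941 matched RefSeq by gene number, and a gene with several rows was taken from its brightest one.

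limma 3.58.1 (R 4.3.3; lmFit, eBayes without trend) was run on all rows, 4 against 4, no covariate, two-sided, Benjamini-Hochberg over all rows at 0.05, intervals at 95%. The fit was tested on simulated data. The members, the gene lists and the tests were chosen with earlier results of these data known. The genes named were the 10 members, a preset set of pathway genes, the 3 of each pathway list and up to 4 of each marker list with the smallest p, and the 5 nearest to Igf1 and to Socs2. Alternatives were the replicate block, other normalizations, filters and variance models, array weights, each sample left out, and other uses of the contradictory descriptions; fitting each description class alone was chosen after seeing the data. Depth is not defined for arrays.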

Additional observations from a re-analysis of the deposited data

Results flagged for a closer look

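Sets of 4 samples (a gene, a marker score or a measure of the arrays in 1 diet group) were searched for a sample that lay far from its group. Of 116 sets, 4 held one, and about 1 in 20 do so by chance. The number given for each is the distance from that sample to its nearest neighbour as a share of the group's range. Ghr in control sample 4 was 8.89, against 8.51 to 8.57 in the other controls (0.848). Socs5, a SOCS family gene, was 5.98 in control sample 3 against 6.24 to 6.27 (0.877). The correlation of control sample 1 with all other arrays had a mean of 0.977 against 0.985 to 0.986 for the other controls (0.921). The satellite cell marker score was 0.06 in ursolic acid sample 1, the sample with the highest Igf1, against −0.08 to −0.06 in the other ursolic acid samples (0.873).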

How the results depend on the processing

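Across all rows, the count at a limma adjusted p of 0.05, which was 0, became 27 when rows below the median level were dropped, 23 with array weights, 12 with robust moderation and a variance trend, and 1 without moderation. With array weights 1 of the 10 IGF axis genes, Socs2, was among them. The count at an unadjusted p of 0.05, which was 1185, became 1800 in samples with concordant labels and 2098 when grouped by description. The Igf1 difference of 0.56 was 0.78 in samples described as untreated, 0.33 in those described as treated and 0.0017 when grouped by description, and the Socs2 difference of 0.62 became −0.19 in that last grouping; the cause was not tested. Leaving out each sample in turn gave 0.44 to 0.63 for Igf1 and 0.55 to 0.74 for Socs2. In the other 11 settings that keep the title groups, neither changed sign. No other member count and no count of the 38 pathway genes moved from 0. Replicate numbers are shared between the groups, and these values do not settle whether same-numbered samples belong together. Deviations of same-numbered samples correlated weakly, at 0.02 to 0.19, all above 0, and 4 of 8 samples correlated best with their own number. The replicate block gave 0 rows at a limma adjusted p of 0.05. At an unadjusted one it gave 1478, against 1185 without the block. Each of the 10 IGF axis genes has 1 row, so no other row could stand for one of them.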
